A study of Homo sapiens with 4 samples.

Results

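Described here are 9 genes of the extracellular matrix that the authors listed as differentially expressed after knockdown of the long non-coding RNA HMRHL. They are 6 collagen chains (COL11A2, COL28A1, COL17A1, COL9A2, COL4A3 and COL9A3), the laminin chain LAMA2 and the proteoglycans SPOCK1 and SPOCK2. They were chosen by symbol from the 742 distinct symbols of the authors' deposited table, so presence in that list and the fold change itself chose them, and their values are given as a description with no test. The cells were K562, an established human leukaemia cell line labelled lymphoblast, at passages 15-20, and both groups were transfected with an siRNA. One group received a scramble control siRNA and the other an HMRHL siRNA, and total RNA was collected 36 hours later, with 2 libraries in each group. The labels do not state separate cultures. The authors' deposited table gives 1 fold change per gene, read here as log2 with positive values higher in the knockdown. A signed linear scale cannot be told apart from log2 by these values. The table states neither the scale nor the direction, and it holds no value per library, error, p-value, expression level or depth, so the spread between replicates behind each value is unknown.

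Collagens are built from 3 chains wound into a triple helix, which requires each triplet of residues to begin with glycine, and each collagen type is assembled from its own set of chains. Fibrillar types form cables, type IX decorates cartilage fibrils, type IV forms the network of basement membranes, and type XVII spans the membrane of epithelial cells. Laminins are trimers of an alpha, a beta and a gamma chain and organise basement membranes together with type IV collagen. SPOCK proteins, also called testicans, are secreted proteoglycans related to SPARC. Matrix of this kind is made chiefly by connective tissue, cartilage and epithelia, and K562 is a suspension line of blood origin.

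Of the 9 genes, 6 stood higher and 3 lower after the knockdown siRNA in the authors' deposited table. Of all 742 listed symbols 30.6% were higher and 69.4% lower, and since the same contrast chose the genes nothing is read from this split. The range ran from 3.25 for COL11A2 to -2.39 for SPOCK2 in the authors' deposited table. On the log2 reading, these outer values are a 9.51-fold higher and a 5.24-fold lower level. At least a 4-fold difference was listed for 7 of the 9 genes, against 39.6% of all listed symbols. That share pools both directions, whose medians differ, 2.05 for higher and -1.71 for lower symbols. Since most of the 9 genes are higher and the same values chose them, nothing is read from the difference. Read as signed linear folds, 0 of the 9 genes and 2.29% of all listed symbols would reach 4-fold. The genes nearest to the entry of the authors' deposited table were COL4A3 at 1.67, where the smallest positive value of any symbol was 1.50, and COL9A3 at -1.43, where the negative value nearest to 0 was -1.15. Genes outside those limits were not analysed here.

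**Figure D1:**
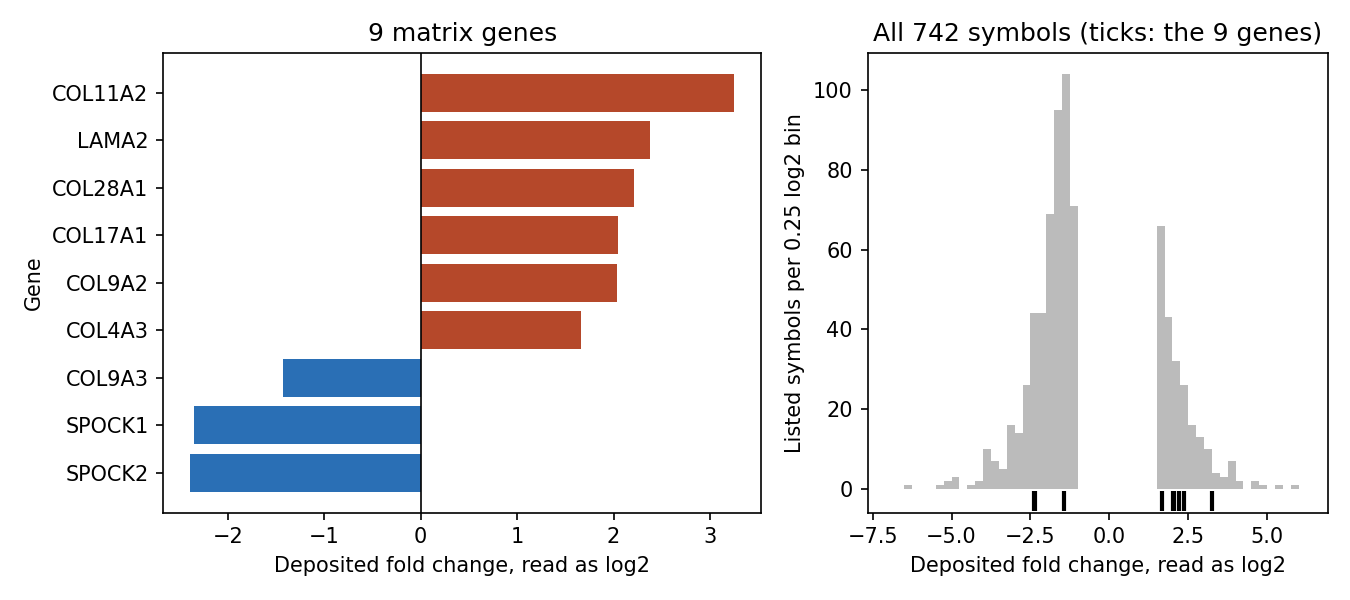
Left, the deposited fold change, read as log2, of each of the 9 matrix genes (bars, 1 value per gene and no error). Right, the number of listed symbols per bin over all 742 symbols, with black ticks for the 9 genes; 6 ticks lie on the positive side, up to 3.25, and 3 on the negative side, down to -2.39, and no symbol lies between -1.15 and 1.50.

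The cartilage collagens were listed in both directions. COL11A2, the alpha-2 chain of the minor fibrillar type XI collagen, was at 3.25 in the authors' deposited table, rank 22 of the 227 higher symbols. COL9A2 and COL9A3 encode 2 of the 3 chains of type IX collagen, a short interrupted-helix collagen that sits on the surface of cartilage fibrils. The authors' deposited table placed COL9A2 at 2.03 (4.09-fold higher, rank 115 of 227) and COL9A3 at -1.43 (2.70-fold lower, rank 378 of the 515 lower symbols). These chains of a single trimer thus carried opposite signs. Neither the remaining chain COL9A1 nor the type XI and type II partners COL11A1 and COL2A1 were listed, which does not show that their levels were equal in the groups. COL9A3 is the only one of the 6 collagen chains on the lower side, and it lies nearer to 0 than any higher gene in the authors' deposited table. With the same minimum of 1.50 in both directions it would not be counted.

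The opposite signs of COL9A2 and COL9A3 stand beside a matched layout of glycine repeats and exons, although COL9A2 had no stretch matched to COL9A3 at 95% identity. Each was read from its longest complete coding sequence in GENCODE release 29, and runs of at least 5 successive triplets that begin with a glycine codon (GGN) were counted. COL9A2 had 689 codons and COL9A3 684. Such runs covered 84.9% of the codons of COL9A2 and 85.1% of those of COL9A3, in 6 runs each. The longest run held 113 triplets in both and began at codon 181 in both. Each transcript had 32 exons, of which 14 were exactly 54 bases long. This is a unit length typical of fibrillar collagen genes that codes for a whole number of Gly-X-Y triplets. The unlisted type IX chain COL9A1 also had 6 runs, a longest run of 113 triplets and 14 exons of 54 bases. These features are therefore not particular to the listed pair. COL11A2 had 2 runs, and the longer, of 338 triplets, made up most of the covered codons. It had the same length as the longest run of its unlisted partner COL11A1, and of the unlisted chains COL1A1 and COL5A1. Of the 66 exons of COL11A2, 31 had 54 bases. The first 10 triplets of the longest run of these chains are printed 5′ to 3′ to show the repeat that the chains share, with every first codon of a triplet, GGN for glycine, in capitals.
COL11A2: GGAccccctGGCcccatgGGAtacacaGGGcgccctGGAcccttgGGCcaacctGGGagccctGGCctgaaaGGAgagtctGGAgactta
COL9A2: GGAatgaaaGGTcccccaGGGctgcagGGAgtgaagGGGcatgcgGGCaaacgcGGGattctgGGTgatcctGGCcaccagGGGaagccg
COL9A3: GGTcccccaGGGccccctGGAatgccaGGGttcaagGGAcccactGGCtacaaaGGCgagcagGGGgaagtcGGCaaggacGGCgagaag

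COL11A2 was the only one of the 9 genes to fill several rows. It occupied 7 rows with an identical value, so the 9 genes took up 15 of the 831 rows of the authors' deposited table. In all, 37 symbols were repeated, 28 of them in 2 rows and 1 in 3 rows. The 8 symbols with at least 4 rows lay in 2 stretches of the genome. On chromosome 6, COL11A2, MDC1, RNF39 and TRIM10 had 7 to 8 rows each between 30070266 and 33192499. On chromosome 19, LILRB3, NCR1, TMC4 and TTYH1 had 4 to 18 rows each between 54160108 and 54916140. The bounds of each stretch are those of its 4 repeated genes, and no other listed symbol lay inside. The first stretch belongs to the major histocompatibility complex and its flank, with COL11A2 75.5 kb from HLA-DPB1, and the second to the leukocyte receptor complex. Both regions are represented in GRCh38 by alternative haplotype sequences as well as by the chromosome itself. No source used here says whether these sequences were in the authors' index, and their part in the repeated rows or in the value of COL11A2 was not tested.

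**Figure D2:**
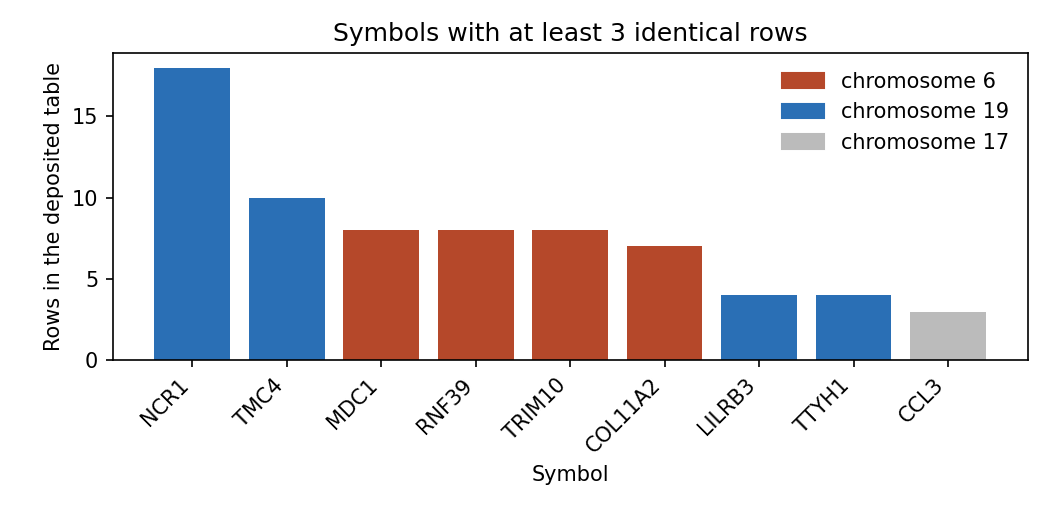
Number of rows (y axis) that each symbol with at least 3 rows (x axis) fills in the deposited table, coloured by chromosome. COL11A2 fills 7 rows, next to 8 for 3 other genes of chromosome 6, and the 4 genes of chromosome 19 fill 4 to 18.

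Among genes of basement membranes, COL4A3 and LAMA2 were listed as higher. COL4A3, the alpha-3 chain of type IV collagen known from the glomerular basement membrane and from Alport syndrome, was at 1.67 in the authors' deposited table (3.17-fold, rank 186 of 227). LAMA2, the laminin alpha-2 chain of muscle and peripheral nerve whose loss causes a congenital muscular dystrophy, was at 2.38 in the authors' deposited table (5.20-fold, rank 71 of 227). LAMC1, the gamma-1 chain with which LAMA2 is assembled, was at -2.12 in the authors' deposited table, 4.36-fold lower. The alpha and gamma chains of the same trimer therefore had opposite signs, as the type IX chains did, while the beta chains LAMB1 and LAMB2 were not listed. The partners COL4A4 and COL4A5 of COL4A3 were not listed either, and none of the 15 other basement membrane genes checked, which include the nidogens, perlecan and agrin, appeared in the authors' deposited table. Since 3.71% of annotated protein-coding symbols were listed, 15 genes would give 0.56 entries, and nothing is read from the absence.

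COL4A3 and COL4A4 are transcribed away from each other on chromosome 2. In GENCODE release 29 their starts lie 112 bases apart, COL4A3 on the plus strand from 227164565 and COL4A4 on the minus strand from 227164453. The RefSeq promoter window of COL4A3 runs from 250 bases before to 50 bases after its RefSeq start on GRCh38.p14. That start, 227164624, lies 59 bases inside the GENCODE gene. Within the window also lies the GENCODE start of COL4A4, at base 80, although only COL4A3 was in the authors' deposited table. The window, chr2:227164374-227164673 on the plus strand, is printed because it serves a listed and an unlisted chain. Capitals mark GGGCGG, the GC box, on either strand.
COL4A3 promoter: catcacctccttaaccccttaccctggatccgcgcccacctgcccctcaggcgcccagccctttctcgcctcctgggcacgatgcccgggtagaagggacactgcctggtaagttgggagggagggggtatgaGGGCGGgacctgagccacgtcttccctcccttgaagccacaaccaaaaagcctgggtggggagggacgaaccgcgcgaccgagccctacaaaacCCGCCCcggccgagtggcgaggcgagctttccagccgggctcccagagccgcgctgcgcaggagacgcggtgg

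COL17A1 and COL28A1 completed the higher collagens. COL17A1, a transmembrane collagen that anchors basal keratinocytes as part of the hemidesmosome, was at 2.05 in the authors' deposited table (4.14-fold, rank 113 of 227). None of the other 10 hemidesmosome genes on the list used here, among them ITGA6, ITGB4, DST and PLEC, was listed, and at a listed share of 3.71% over all protein-coding symbols less than 1 entry would come from a list of this size. COL28A1, a collagen with von Willebrand factor A domains found around peripheral nerve, was at 2.21 in the authors' deposited table (4.62-fold, rank 93 of 227). The 5 higher collagen chains had a median of 2.05 in the authors' deposited table, and the median over all higher symbols was also 2.05.

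The glycine repeats of COL17A1, COL28A1 and COL4A3 fell into more runs than the 2 of COL11A2 and the 6 of each listed type IX chain. The covered share is taken over all codons of a chain. It therefore also depends on stretches outside the helix and does not measure breaks. COL17A1 had 17 glycine runs covering 37.1% of its 1497 codons, and COL28A1 had 17 runs covering 44.3% of its 1125 codons. The longest runs were 55 and 28 triplets. COL4A3 had 24 runs covering 77.1% of its 1670 codons, with the longest at 39 triplets. Over the 6 listed chains the covered share ran from 37.1% to 85.1% with a median of 69.2%, and over the 38 collagen chains that were not listed it ran from 8.13% to 78.8% with a median of 59.9%. The listed chains thus included fibrillar, network, transmembrane and interrupted-helix types. The corresponding stretches are given for comparison with those of the cartilage chains, marked in the same way.
COL4A3: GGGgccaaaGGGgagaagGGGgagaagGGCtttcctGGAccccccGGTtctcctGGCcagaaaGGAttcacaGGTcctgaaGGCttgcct
COL17A1: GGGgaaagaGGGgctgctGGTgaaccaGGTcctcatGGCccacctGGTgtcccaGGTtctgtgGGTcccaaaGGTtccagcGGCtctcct
COL28A1: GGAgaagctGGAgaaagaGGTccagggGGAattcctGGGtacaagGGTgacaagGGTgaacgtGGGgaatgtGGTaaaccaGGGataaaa

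**Figure D3:**
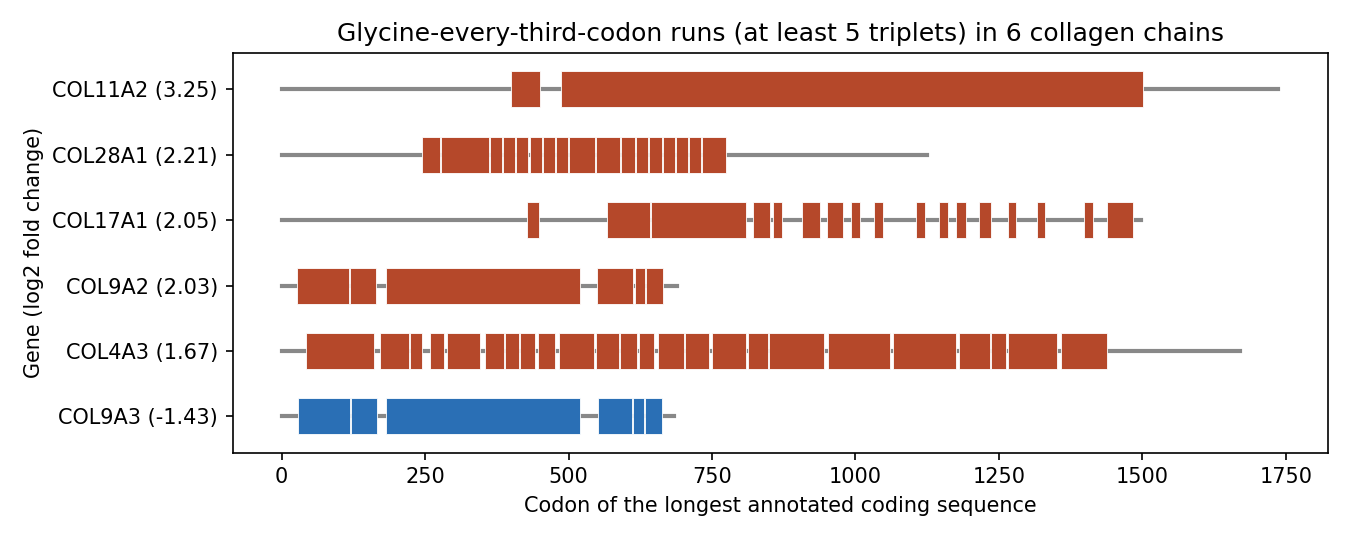
Position of glycine-repeat runs of at least 5 triplets (boxes) along the longest coding sequence (grey line, x axis in codons) of the 6 listed collagen chains, ordered by deposited log2 fold change, red for higher and blue for lower. COL9A2 and COL9A3 each show 6 runs in a similar layout, with opposite signs, COL11A2 has 2 runs, the longer of 338 triplets, and COL4A3, COL17A1 and COL28A1 have 17 to 24 shorter runs.

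The 2 proteoglycans had nearly the same value. SPOCK1, testican-1, was at -2.35 in the authors' deposited table (5.10-fold lower, rank 113 of 515), and SPOCK2, testican-2, at -2.39 (5.24-fold lower, rank 104 of 515). They lie on different chromosomes. SPOCK3 was not listed, and none of the 5 SPARC-related genes on the same list (SPARC, SPARCL1, SMOC1, SMOC2 and FSTL1) appeared in the authors' deposited table. At a listed share of 3.71% over all protein-coding symbols, the whole list of 8 genes would give 0.30 entries, and the absent genes alone fewer. Nothing is therefore read from these absences. SPOCK1 and SPOCK2 were chosen because they were listed, so nothing is read from their presence either.

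Promoters differed among the genes on the higher side. RefSeq windows were found for 7 of the 9 genes. Their median GC content was 55.3%, against 61.7% for 543 listed symbols and 58.3% for all 27305 windows. Within the higher genes it ran from 38.0% for COL28A1 to 71.7% for COL9A2, and the ratio of observed to expected CpG from 0.082 for COL17A1 to 0.763 for COL9A2. The GC box GGGCGG occurred in 2 of the 7 windows, COL9A2 with 3 matches, of which a pair overlap by 1 base, and COL4A3 with 2, against 44.6% of all windows and 53.0% of those of listed symbols. TATAAA occurred in COL17A1 alone, at position -206 from the start, against 12.0% of all windows. The letters ACAAAG, the core bound by SOX factors, occurred in COL17A1 and COL9A2 (16.0% of all windows), CCAAT in COL28A1 and COL17A1 (35.7%), and CACGTG in none of the 7 (7.43%). Both strands were searched throughout. The windows of COL9A2 and COL17A1 are shown as the most GC-rich higher gene and the higher gene with TATAAA. Capitals mark GGGCGG and TATAAA on either strand. Windows follow RefSeq starts, which for COL9A2 and COL11A2 lie 527 bases inside and 1020 bases upstream of the GENCODE gene. For COL4A3 and COL17A1 they lie 59 and 77 bases inside it.
COL9A2 promoter, minus strand, chr1:40317237-40317536: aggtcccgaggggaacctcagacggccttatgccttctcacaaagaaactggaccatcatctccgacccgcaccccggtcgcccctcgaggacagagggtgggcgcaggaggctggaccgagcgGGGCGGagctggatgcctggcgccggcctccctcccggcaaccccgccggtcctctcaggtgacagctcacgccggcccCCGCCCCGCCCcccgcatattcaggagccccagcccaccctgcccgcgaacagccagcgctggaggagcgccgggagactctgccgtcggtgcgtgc
COL17A1 promoter, minus strand, chr10:104085831-104086130: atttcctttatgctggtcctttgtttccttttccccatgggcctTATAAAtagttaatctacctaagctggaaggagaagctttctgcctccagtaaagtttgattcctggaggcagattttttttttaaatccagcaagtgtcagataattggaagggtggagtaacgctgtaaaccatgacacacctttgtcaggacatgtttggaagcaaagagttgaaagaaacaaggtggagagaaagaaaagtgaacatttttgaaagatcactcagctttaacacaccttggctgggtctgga

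The 9 genes are spread over 7 chromosomes, and each was placed with GENCODE release 29 on GRCh38. On chromosome 6, COL11A2 (minus strand) runs from 33162681 to 33192499 and LAMA2 (plus strand) from 128883141 to 129516569. On chromosome 10, COL17A1 runs from 104031286 to 104085957 and SPOCK2 from 72059035 to 72089032, each on the minus strand. Also on the minus strand are COL28A1 (chromosome 7, 7356203 to 7535853), COL9A2 (chromosome 1, 40300487 to 40317813) and SPOCK1 (chromosome 5, 136975298 to 137598379). The plus strand carries COL9A3 (chromosome 20, 62816244 to 62841159) and COL4A3 (chromosome 2, 227164565 to 227314792). Their spans had a median of 54.7 kb, against 30.2 kb for listed and 27.1 kb for all annotated protein-coding genes, with LAMA2 at 633 kb and SPOCK1 at 623 kb at the long end.

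Little of these genes is shared with other annotated transcripts. Exons of 3 genes overlapped exons on the opposite strand: COL9A3 shares 45 bases with TCFL5, COL4A3 shares 120 bases with AC097662.1 and LAMA2 shares 148 bases with AL356124.2. These made up 0.93%, 1.32% and 1.43% of their exonic bases, and none of the 3 partners was listed. On its own strand COL17A1 shares 16 bases with MIR936. No transcript of another gene matched any of the 9 at 95% identity over 50% of the length of the longest transcript.

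Neighbouring listed genes did not share one direction. The nearest listed gene to COL9A3 was NTSR1, 53.5 kb away and at -1.48 in the authors' deposited table, also lower. LAMA2 (higher) had PTPRK at -1.80 in the authors' deposited table, 362 kb away. The nearest to SPOCK2 was C10orf105 at -1.52 in the authors' deposited table, 321 kb away. For SPOCK1 (lower) it was TGFBI, itself a matrix protein that binds collagens and integrins, 911 kb away and at 2.48 in the authors' deposited table. COL17A1 had CALHM2 at -1.17 in the authors' deposited table, 579 kb away. For COL11A2, COL4A3 and COL28A1 the nearest were PACSIN1 (2.13), DOCK10 (3.26) and AMZ1 (-2.73) in the authors' deposited table, at 1274 kb, 2122 kb and 4581 kb.

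Other matrix genes were counted from lists of 305 annotated symbols, the 9 included. Of these, 33 were in the authors' deposited table, 16 higher and 17 lower. Without the 9 genes, 24 of 296 were listed (8.11%), 10 higher and 14 lower, where 3.71% of all annotated protein-coding symbols were listed, 1.13% higher and 2.57% lower. The lists were made with earlier results of these data known and are not independent of them, so the larger share is a description. Over all 33 genes the median was -1.17 in the authors' deposited table. With 16 higher and 17 lower genes and no listed value between -1.15 and 1.50, it is simply the lower gene nearest to 0, SVEP1. It is not a typical level and is not compared with the median of -1.44 over all 742 symbols.

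Genes that modify, cleave or bind matrix also had both signs. Their counts are descriptions, to be read beside 3.71% of all protein-coding symbols listed and 69.4% of listed symbols lower. Of 31 annotated enzymes and chaperones of collagen synthesis, 2 were listed (6.45%). P4HA3, a catalytic subunit of collagen prolyl 4-hydroxylase, was at -3.27, and FKBP10, a chaperone of procollagen, at 1.85 in the authors' deposited table. Of 53 matrix-degrading enzymes and inhibitors, 9.43% were listed, 2 higher and 3 lower. These were the stromelysin MMP11 at 1.77, heparanase HPSE at 1.61, its relative HPSE2 at -2.39, ADAMTS13, which cleaves von Willebrand factor, at -1.85, and MMP17 at -1.21 in the authors' deposited table. Of 50 integrins and other matrix receptors, 12% were listed, 3 higher and 3 lower. The collagen-binding integrin chain ITGA10 was at 2.51 and the other listed collagen-binding chain, ITGA2, at -1.28 in the authors' deposited table. BCAM, a laminin receptor, stood at 2.60 and the glypican GPC1 at 3.59 there, while the glypican GPC5 stood at -1.76 and the leukocyte integrin ITGB2 at -1.22 in the authors' deposited table.

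Non-collagenous matrix proteins included larger values than the 9 genes. Of 62 glycoproteins, 12.9% were listed, 3 higher and 5 lower. Over all protein-coding symbols 3.71% were listed, and 69.4% of all listed symbols were lower. SRPX2, a secreted protein, was at 4.17, TGFBI at 2.48 and DMP1, a protein of dentin and bone, at 2.14 in the authors' deposited table. The enamel protein ENAM was at -4.29 and the cartilage protein CILP2 at -3.62 in the authors' deposited table. The lower side also held TNC, tenascin-C, at -1.89, ABI3BP at -1.52 and SVEP1 at -1.17 in the authors' deposited table. Of 25 proteoglycans and leucine-rich proteins, 2 were listed (8%). CHAD, a cartilage protein that binds cells and collagen, was at -2.96 and IMPG1 of the retinal matrix at 1.71 in the authors' deposited table.

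**Figure D4:**
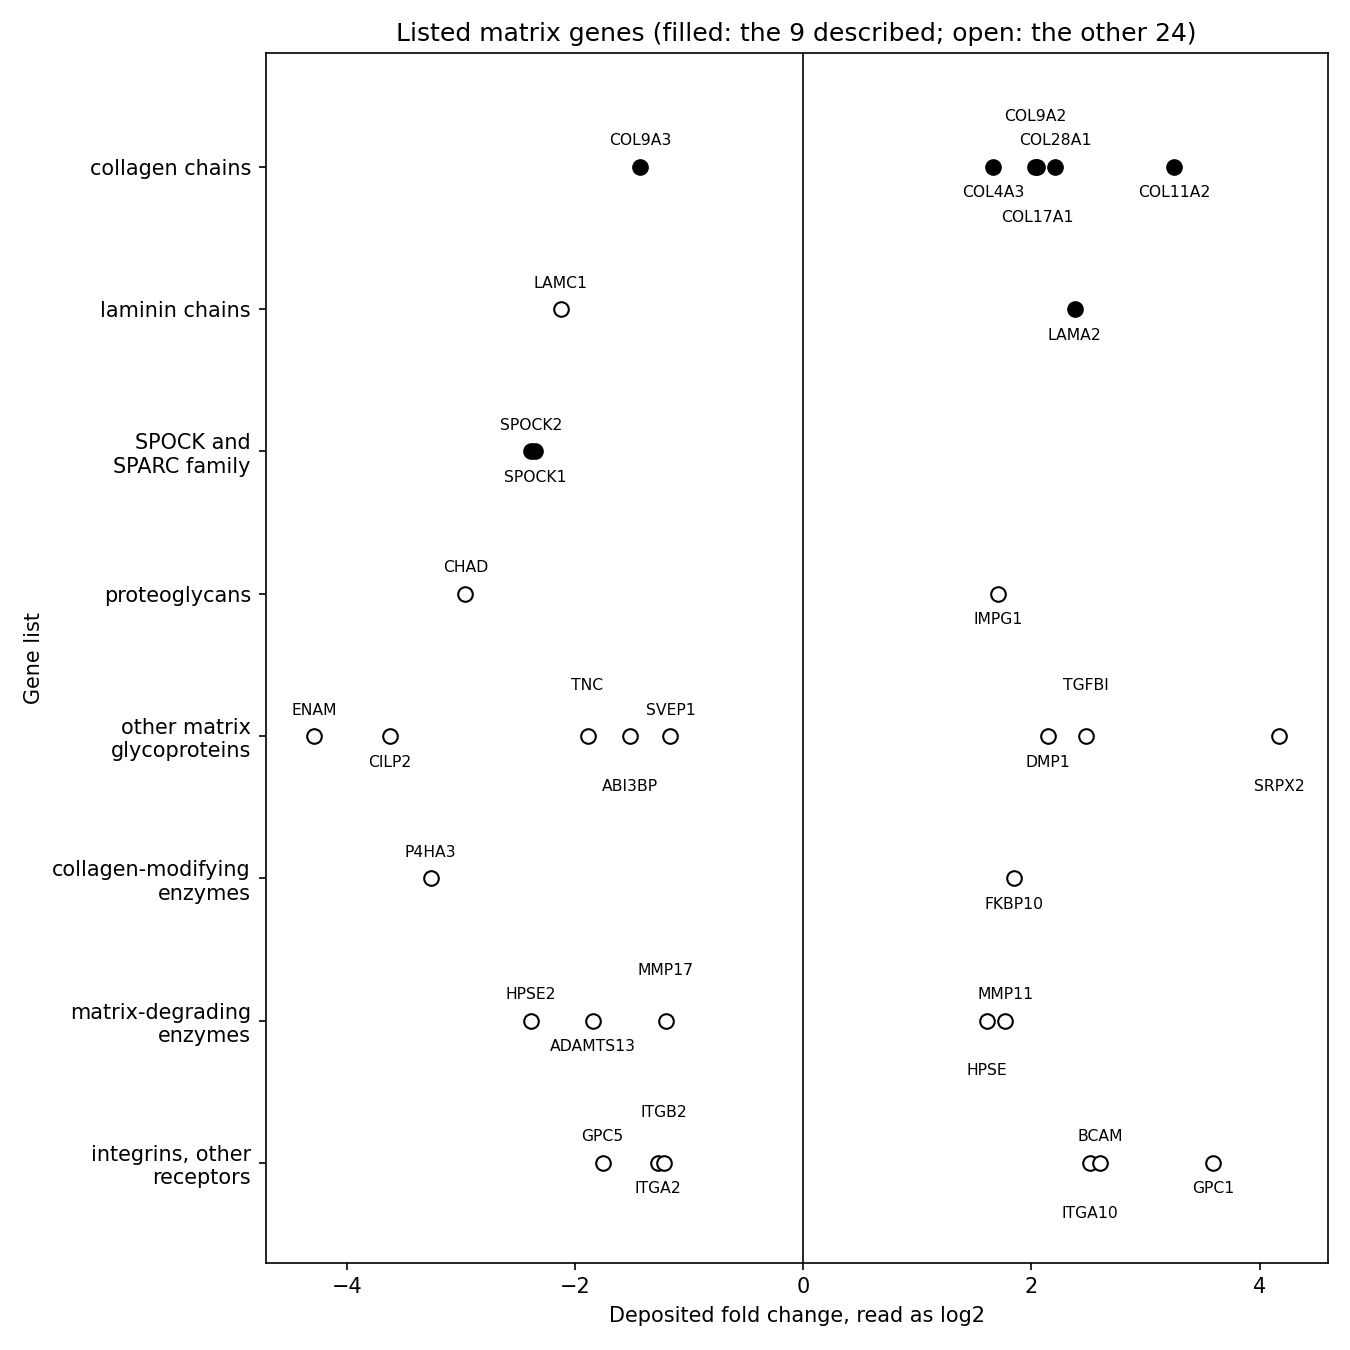
Deposited fold change, read as log2 (x axis), of the 33 listed matrix genes by gene list (y axis), with 1 point per gene; filled points are the 9 genes described and open points the other 24. Most lists hold genes on both sides of 0, the SPOCK genes lie together near -2.4, and COL9A3 and LAMC1 lie on the side opposite to the other collagen and laminin chains.

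The labelled cell type could not be checked by levels, since none are given. The marker lists are to be read against 3.71% of all protein-coding symbols listed, which is under 1 entry for each list, and against 69.4% of listed symbols being lower. Of 16 erythroid markers fixed for K562, which include globins, GATA1 and TFRC, none was in the authors' deposited table. Of 15 chondrocyte markers 4 were listed: COL11A2 (3.25) and COL9A2 (2.03) were higher, and COL9A3 (-1.43) and CHAD (-2.96) lower, in the authors' deposited table. The collagen chains among them belong to the 9 genes, which were chosen because they were listed, and only CHAD does not. Nothing is therefore read from this count. SOX9, COL2A1 and ACAN were not listed. Of 16 fibroblast and mesenchymal markers 3 were listed, all lower: PDGFRB at -3.40, THY1 at -2.18 and TAGLN at -1.43 in the authors' deposited table. The fibrillar chains COL1A1, COL1A2 and COL3A1 were not. Of 11 epithelial markers only TP63 was listed, at -1.25 in the authors' deposited table. The part of other cell types in the values of the 9 genes was not tested.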

How the data were processed

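RNA of 4 K562 libraries, 2 per group, was sequenced after stranded library preparation, per the labels' protocols. Reads were handled with Cuffdiff, Cufflinks, TopHat, Bowtie2, SAMtools 1.3.1 and Trim Galore 0.4.4, listed in no known order, and GRCh38 (hg38) is named as the build, per the submitters' processing notes; their settings and the threshold for listing a gene are not given in the sources used here. The authors deposited 1 fold change per selected gene, read here as log2 because Cuffdiff, named in those notes, reports log2 fold changes; the values themselves do not settle this, since both signs and the gap around 0 could also come from a signed linear scale. With no value per library, no test or interval was made, and the depth is unknown.

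Each symbol was counted once; 739 of 742 matched protein-coding symbols of GENCODE release 29. The 9 genes and all gene lists were chosen with earlier results of these data known. Named are the 9 genes, every listed gene of the matrix and marker lists, trimer partners, nearest listed genes and overlapping genes, except that the neighbour of COL9A2 is not reported here; the other genes with repeated rows were named after their values were seen. A planned comparison of protein sequences was replaced by codon counts. Run and motif counting were tested on simulated sequences. Alternatives were a 4-fold minimum, an equal minimum, counting rows, a linear scale, other run lengths and protein-coding overlaps. BLAST 2.17.0, matplotlib 3.10.9, SciPy 1.17.1, pandas 2.3.3 and numpy 2.4.6 under Python 3.11.15 were used. Promoters are from RefSeq (GRCh38.p14).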

Additional observations from a re-analysis of the deposited data

How the results depend on the processing

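No paired analysis was possible because the table holds no value per library. For the same reason tests per gene, leaving out replicates, other normalizations and filters on low values were not run. The 6 higher and 3 lower matrix genes became 5 and 2 at a minimum of 4-fold, and 6 and 2 at an equal minimum in both directions, which removes COL9A3. The number of lower collagen chains went from 1 to 0 in both settings, while the higher ones were 4 and 5. Of all listed matrix genes, the 17 lower ones became 8 at 4-fold and 12 at the equal minimum, and the 16 higher ones 11 and 16. The share of lower symbols, 69.4%, was 71.2% over rows and 59.9% at 4-fold. Read as a signed linear fold change instead of log2, the median fold of the 9 genes would be 2.21 in place of 4.62, with every sign as before, and the genes at 4-fold or more would go from 7 to 0 (over all listed symbols from 39.6% to 2.29%). Opposite-strand overlaps fell from 3 genes to 1 when only protein-coding partners were counted, by the construction of that setting. With runs of at least 10 triplets the covered share of COL28A1 was 22.1%, that of COL17A1 23.2% and that of COL4A3 68.1%. The unknown depth limits every value.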
